A study of Mus musculus with 6 samples.

Results

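The collagen genes are the 44 genes whose symbol is Col, a number, the letter a and a number, such as Col1a1 or Col6a6, out of 28649 gene names in the count matrices. They were taken by that pattern from the gene names alone, with no measured value, and all 44 were found in the mouse annotation GENCODE M21. All 44 had a UMI in the cells kept for analysis in 5 of the 6 libraries, and 43 in library 2 labelled shPgk1, where Col9a1 had none. The 6 libraries hold droplet single-cell RNA counts of 4T1, a line of mouse breast carcinoma cells that serves to model the triple-negative disease. In 3 libraries the cells carried a control short hairpin RNA that targets no gene (shNC), and in 3 a hairpin against Pgk1 (shPgk1), the gene of the glycolytic enzyme phosphoglycerate kinase. Lentivirus delivered both hairpins, puromycin at 2 µg/mL for 7 days, begun 48 h after transduction, selected the cells, and suspensions had a viability above 80%. The control label also reads wild type, although by the protocol those cells carry a vector and were selected too. The libraries are called biological replicates, but nothing given ties each to its own animal or dish, and the p-values below cover the spread among these 6 libraries alone, which may be technical.

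Collagens are extracellular proteins built from chains wound into a triple helix, and each gene encodes 1 chain. Fibrillar chains such as those of types I, III and V form the fibres of connective tissue, type IV chains form the network of basement membranes, type VI chains form beaded filaments, and multiplexins sit at the edge of vessel basement membranes. In carcinomas fibrillar collagen is known chiefly as a product of fibroblasts, while endothelial cells and pericytes lay down the basement membrane of vessels.

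Upstream sequences of 4 members that the results below turn on are shown first: Col1a2 and Col3a1, which marked the fibroblast-like cells, and Col7a1 and Col8a1, which stood above background in the tumour-like cells. They are the 250 bases before the annotated start, from RefSeq on build GRCm38.p6, on the strand of the gene and 5′ to 3′. Capitals mark CCAAT or its other strand ATTGG, the box bound by nuclear factor Y, and TATAAA, the TATA box (its other strand, TTTATA, was searched too). The window of Col1a2 is chr6:4505368-4505617 on the plus strand, that of Col3a1 chr1:45311288-45311537 on the plus strand, that of Col7a1 chr9:108953336-108953585 on the plus strand, and that of Col8a1 chr16:57754738-57754987 on the minus strand.
Col1a2: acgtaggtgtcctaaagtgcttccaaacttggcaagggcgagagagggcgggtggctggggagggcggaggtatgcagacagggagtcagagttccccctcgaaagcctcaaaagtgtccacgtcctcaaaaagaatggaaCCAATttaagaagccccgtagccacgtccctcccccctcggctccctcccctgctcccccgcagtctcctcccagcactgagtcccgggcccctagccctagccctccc
Col3a1: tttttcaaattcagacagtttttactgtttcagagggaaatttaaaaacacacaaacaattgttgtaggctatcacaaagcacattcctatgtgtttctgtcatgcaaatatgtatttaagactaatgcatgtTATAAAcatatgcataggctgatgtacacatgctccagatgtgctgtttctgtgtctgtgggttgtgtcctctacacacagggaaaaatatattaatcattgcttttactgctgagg
Col7a1: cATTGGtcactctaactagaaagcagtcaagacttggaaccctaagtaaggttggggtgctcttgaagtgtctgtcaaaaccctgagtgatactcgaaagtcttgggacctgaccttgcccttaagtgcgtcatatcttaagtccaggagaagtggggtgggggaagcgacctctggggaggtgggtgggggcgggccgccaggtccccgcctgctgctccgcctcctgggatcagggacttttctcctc
Col8a1: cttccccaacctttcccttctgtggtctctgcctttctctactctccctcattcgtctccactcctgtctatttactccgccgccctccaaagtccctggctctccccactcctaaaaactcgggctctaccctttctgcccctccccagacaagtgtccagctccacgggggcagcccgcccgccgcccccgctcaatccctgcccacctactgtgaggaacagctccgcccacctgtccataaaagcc
Col1a2 held CCAAT with its first base 109 bases before the start, Col3a1 held TATAAA 117 bases before it, and Col7a1 held ATTGG 249 bases before it. Col8a1 held none of these letters. Among 32851 RefSeq windows of that length, 33.8% held CCAAT on either strand and 12.4% held TATAAA on either strand. The AP-1 motif TGANTCA, which is its own other strand, was in 6.75% of the windows and in 0 of these 4. A match is a description of letters and no measure of binding. Windows were found for 35 of the 44 members.

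Cells were placed in classes by clustering without the collagen genes and by marker genes, and each class is called "like" its type. The 41458 kept cells held 1937 fibroblast-like, 179 pericyte or smooth muscle-like, 433 endothelial-like, 16403 epithelial tumour-like, 12443 monocyte or macrophage-like and 2837 T or NK-like cells. The markers used to define each class sat where the names place them. Dcn, the fibroblast proteoglycan decorin, averaged 737 CPM in fibroblast-like cells (UMIs of the gene per 1000000 UMIs of the class in a library) and 7.04 in T or NK-like cells, and Rgs5 averaged 2735 in pericyte-like cells. Cdh5, the endothelial cadherin, averaged 452 in endothelial-like cells, Epcam 520 and Krt8 1273 in tumour-like cells, and Csf1r 271 and Cd68 314 in macrophage-like cells. The label names 4T1 as the cell type of every library, so the stromal and immune classes go beyond it. Library totals ran from 78778073 to 128933960 UMIs and the median UMIs of a kept cell from 7962.5 to 11522. Barcodes carry running numbers and not sequences, so barcodes common to libraries were not counted.

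The hairpin's target, Pgk1, did not stand lower under the label shPgk1. Its level over all kept cells was 351, 341 and 313 CPM in shNC libraries 1 to 3 and 324, 324 and 349 in libraries 1 to 3 labelled shPgk1. The groups overlapped. In tumour-like cells it averaged 249 ± 34.5 (SD, n = 3) in shNC and 290 ± 41.0 (SD, n = 3) in the libraries labelled shPgk1. Every comparison below is therefore one between library labels.

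Collagen counts were concentrated in a few genes and a few cells. The 44 members held 1599772 UMIs in kept cells, and Col1a1, Col1a2 and Col3a1 made up 65.9% of them. The 17 members with at least 10000 UMIs held 98.2%, while the 18 members under 1000 UMIs held 0.346% together. The lowest 5 were Col9a1 with 20 UMIs, Col9a2 with 34, Col2a1 with 36, Col10a1 with 46 and Col6a4 with 50, among them the cartilage chains of types II, IX and X. Fibroblast-like cells, at most 6.98% of the cells of a library, gave between 62.4% and 70.6% of its collagen UMIs. Tumour-like cells gave 11.8% to 23.0%, macrophage-like cells 4.41% to 9.67%, endothelial-like cells 1.55% to 3.66% and pericyte-like cells 1.21% to 4.10%. A UMI level was not divided by transcript length, so levels are compared for 1 gene across classes and libraries, and between genes only as shares of counts.

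**Figure D1:**
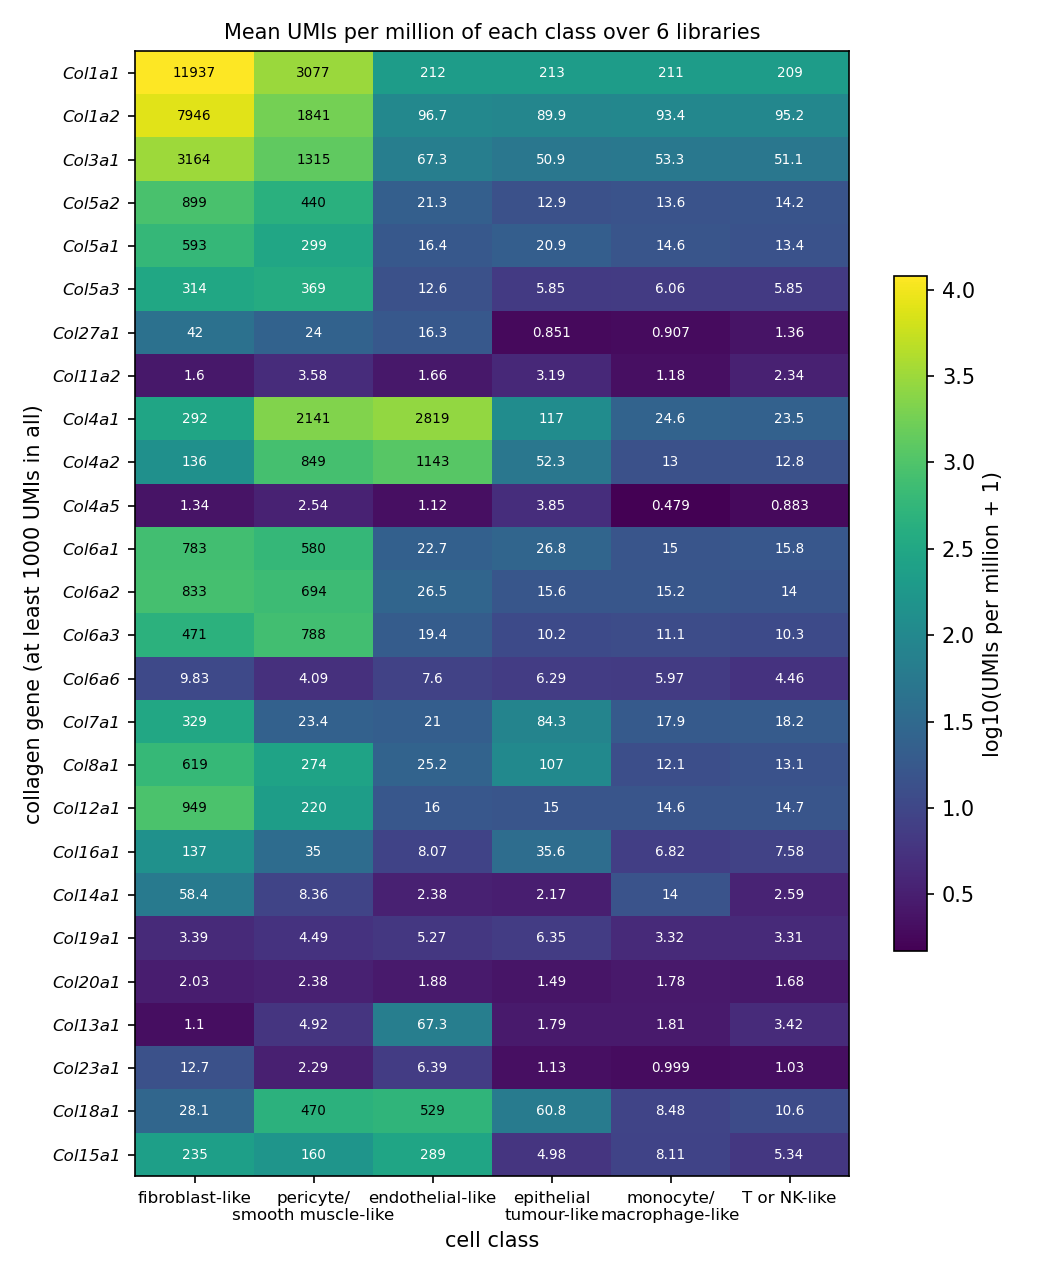
Mean CPM of 26 collagen genes (rows, those with at least 1000 UMIs in all) in 6 cell classes (columns) over 6 libraries, with the colour on a log10 scale. Col1a1 averaged 11937 in fibroblast-like cells and between 209 and 213 in the endothelial-like, tumour-like, macrophage-like and T or NK-like columns, while Col4a1 peaked at 2819 in endothelial-like cells.

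The stromal classes shared many collagen genes and differed in the shares of the collagen types. Fibrillar chains made up 83.6% of the collagen UMIs of fibroblast-like cells and type VI chains 7.03%. In endothelial-like cells type IV chains made up 72.1% and the multiplexins Col15a1 and Col18a1 15.1%. Pericyte-like cells lay between for fibrillar chains, at 55.2%, and type IV, at 20.9%. Their type VI share of 15.2% was above those of fibroblast-like and endothelial-like cells, the latter 1.34%. In tumour-like cells the shares were 39.9% fibrillar, 19.3% type IV, 11.3% types VIII and X, 9.09% type VII and 7.27% multiplexin. In macrophage-like and T or NK-like cells they were 69.5% and 70.5% fibrillar, with 6.56% and 6.49% type IV, so these immune classes had nearly the same makeup.

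Col1a1 and Col1a2 encode the chains of type I collagen, and Col3a1 that of type III. In fibroblast-like cells Col1a1 stood at 10586, 10475 and 11555 CPM in shNC libraries 1 to 3 and at 12475, 13060 and 13474 in libraries 1 to 3 labelled shPgk1. Col1a2 stood at 7208, 6960 and 7239 and at 8367, 8666 and 9237 in the same order. Both chains were higher in each library labelled shPgk1 than in any shNC library. Col3a1 stood at 3205, 2600 and 2732 and at 2890, 3688 and 3871, with overlap of the groups. Nearly every fibroblast-like cell had a UMI of Col1a1, between 98.9% and 100% of cells in a library, against 53.6% to 83.7% of T or NK-like cells, whose median depth of 3740 to 6800.5 UMIs in a library was below the 9993.5 to 17328 of fibroblast-like cells. Thinned to 2000 UMIs a cell, which left out 134 fibroblast-like and 318 T or NK-like cells, the shares were 97.5% to 99.0% and 18.9% to 50.4%.

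The next genes of fibroblast-like cells by UMI count were Col12a1, a fibril-associated collagen, with a mean of 949 ± 201 CPM (SD, n = 6), Col5a2 with 899 ± 169 and Col6a2 with 833 ± 79.4. Their chain partners Col5a1, Col5a3, Col6a1 and Col6a3 averaged 593, 314, 783 and 471. Col5a1 and Col5a2 belong to type V, which is built into type I fibrils, and the Col6 chains to the filaments of type VI. The Col1a1 to Col1a2 ratio was 1.46 to 1.60 over the 6 libraries in fibroblast-like cells and 2.22 to 2.50 in tumour-like cells. In T or NK-like cells it was 1.44 to 2.51, a range that holds both.

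Pericyte-like cells were the second class for fibrillar chains. Col1a1 stood at 2773, 3257 and 2241 CPM in shNC libraries 1 to 3 and at 2031, 4556 and 3601 in libraries 1 to 3 labelled shPgk1. Col3a1 stood at 383, 864 and 1709 and at 748, 2552 and 1636. The groups overlapped for both genes, and every value of Col1a1 lay below the lowest fibroblast-like value of 10475. Col1a2, Col6a3 and Col4a2 averaged 1841, 788 and 849 there. The fibroblast marker Dcn ran from 7.44 to 316 CPM in these cells, and its part was not tested.

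**Figure D2:**
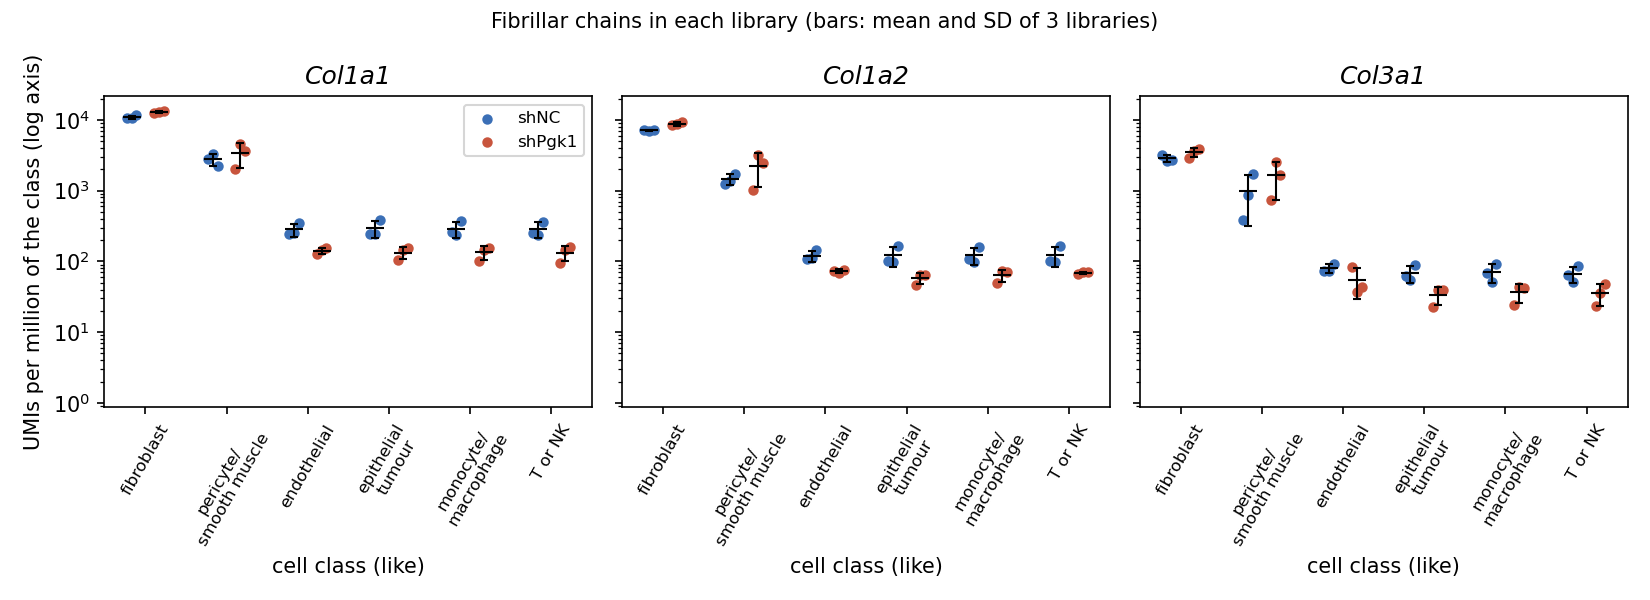
CPM of Col1a1, Col1a2 and Col3a1 (log axis) in each of 6 cell classes, 1 point a library, with the mean and SD of the 3 shNC and 3 shPgk1 libraries as bars. In fibroblast-like cells the libraries labelled shPgk1 sit at or above 12475 for Col1a1 and the shNC libraries at or below 11555, while in endothelial-like, tumour-like, macrophage-like and T or NK-like cells the shNC points of Col1a1 lie above its shPgk1 points.

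Col1a1 sat near 1 common level in tumour-like, macrophage-like, endothelial-like and T or NK-like cells. Col1a1 in T or NK-like cells, which should lack fibrillar collagen, stood at 256, 236 and 366 CPM in shNC libraries 1 to 3 and at 96.0, 145 and 157 in libraries 1 to 3 labelled shPgk1. In tumour-like cells the values were 247, 244 and 386 and 104, 143 and 152, in macrophage-like cells 259, 235 and 371 and 102, 146 and 155, and in endothelial-like cells 242, 255 and 350 and 128, 144 and 152. Within a library the Col1a1 level of tumour-like cells was 0.966 to 1.09 times that of T or NK-like cells. Library 3 was the highest of the shNC group in each of these classes, and the libraries labelled shPgk1 lay below every shNC library. The T or NK-like level was 0.769% to 3.16% of the fibroblast-like level of the same library. Col1a2 and Col3a1 had median ratios to T or NK-like cells of 0.953 and 1.00 in tumour-like cells. The fibrillar Col5a1 stood higher in tumour-like cells in 6 of 6 libraries, by 1.41 to 1.84 times, and Col5a3 in endothelial-like cells, by 1.45 to 3.11 times.

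The 15 fibroblast markers, none of them a collagen, were set beside this. Their level as a share of the fibroblast-like level of the same library had a median over markers of 1.32% in T or NK-like, 1.34% in tumour-like and 1.51% in macrophage-like cells. Single markers stood well above that. Thy1, which T cells make, was at 65.7% to 85.1% in T or NK-like cells, and Fap was at 1.18% to 7.81% there. In tumour-like cells Fbln2 had a median of 18.9% and a highest value of 22.7%, with Fap at 3.40% to 11.2% and Pdgfra at 2.12% to 5.23%. In macrophage-like cells Fap was at 5.64% to 20.2% and Cxcl14 at 2.71% to 6.30%. In pericyte-like cells the median over markers was higher, 7.37%, and single markers in a library ran from 0% to 264%. A collagen level that does not exceed the T or NK-like level is read here as background and not as expression.

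Against that background, 20 members had enough counts for a ratio in each library. In fibroblast-like cells 17 of the 20 exceeded the T or NK-like level by more than 2 times in every library, and in pericyte-like cells 15. In tumour-like cells 6 did so, namely Col4a1, Col4a2, Col7a1, Col8a1, Col16a1 and Col18a1, in endothelial-like cells 4, namely Col4a1, Col4a2, Col15a1 and Col18a1, and in macrophage-like cells Col14a1 alone. Of the same 20, the median ratio lay between 0.8 and 1.25 for 16 in macrophage-like, 10 in tumour-like and 8 in endothelial-like cells. These are levels within libraries and carry no test.

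**Figure D3:**
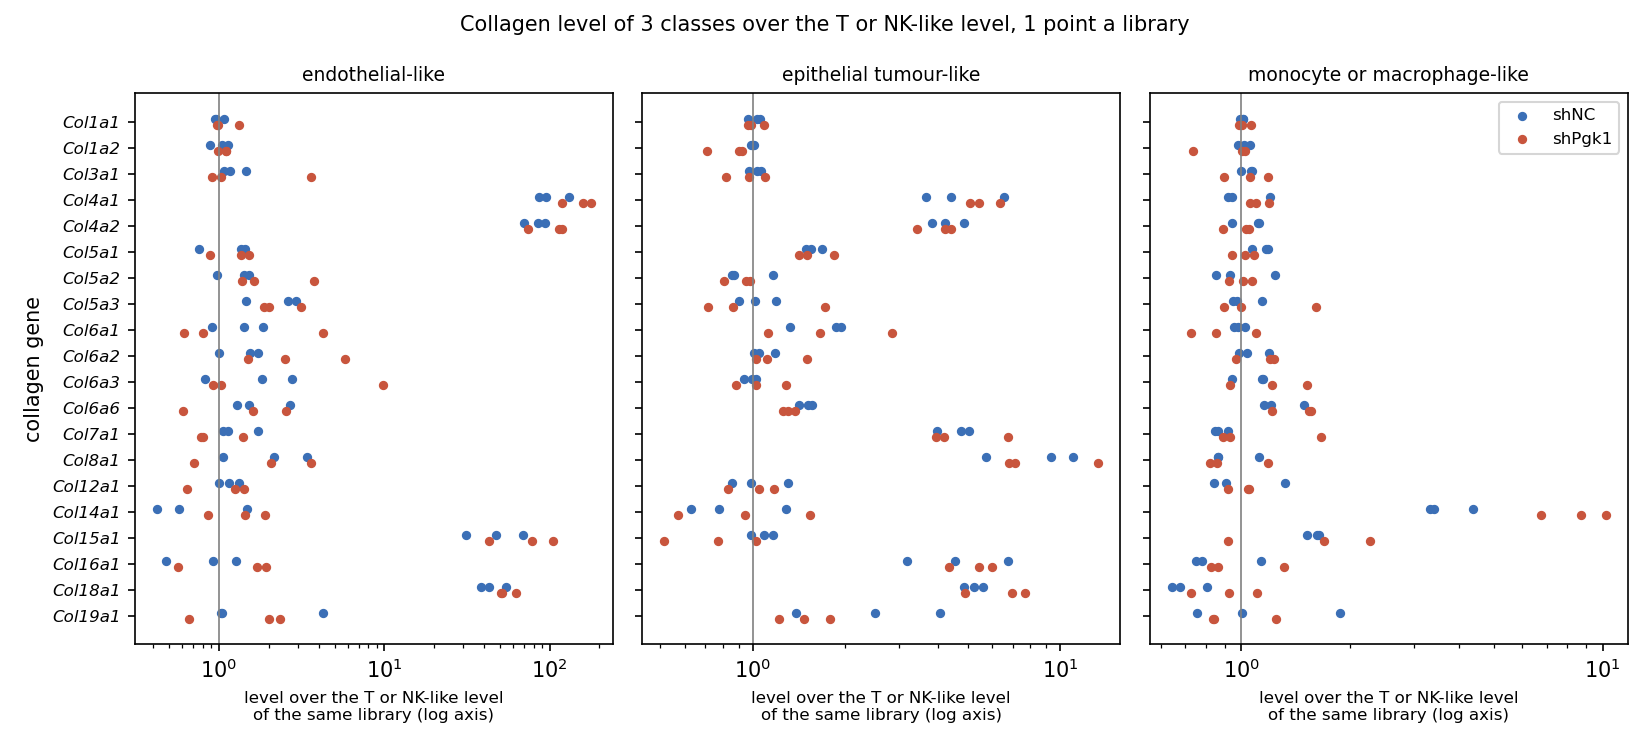
Level of 20 collagen genes (rows) in endothelial-like, tumour-like and macrophage-like cells divided by the T or NK-like level of the same library (log axis), 1 point a library, coloured by label. Most points of Col1a1 sit near 1, while Col8a1 in tumour-like cells lies between 5.76 and 13.3 and Col14a1 in macrophage-like cells between 3.34 and 10.2.

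Basement membrane chains were highest in vessel cells. Col4a1 and Col4a2 encode the 2 chains of the common type IV network. In endothelial-like cells Col4a1 stood at 2237, 2660 and 3127 CPM in shNC libraries 1 to 3 and at 2882 to 3009 in the libraries labelled shPgk1, inside the shNC range. Col4a2 averaged 1143 ± 134 (SD, n = 6) there. Pericyte-like cells came next, with a mean of 2141 ± 326 for Col4a1 and 849 ± 153 for Col4a2, and their range of 1682 to 2529 for Col4a1 overlapped the endothelial-like range of 2237 to 3127. Fibroblast-like cells averaged 292 ± 52.0 for Col4a1 and tumour-like cells 117 ± 11.3, with no overlap between those 2 classes. The Col4a1 to Col4a2 ratio stayed between 2.01 and 2.83 in these 4 classes.

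The multiplexins differed from each other. Col18a1, the precursor of endostatin, averaged 529 ± 126 CPM in endothelial-like cells (SD, n = 6), 470 ± 103 in pericyte-like cells, 60.8 ± 8.80 in tumour-like cells and 28.1 ± 8.50 in fibroblast-like cells. The 2 vessel classes overlapped, and tumour-like cells, at 47.4 or more in every library, lay above fibroblast-like cells, at 41.1 or less. Because tumour-like cells were many, they held 49.3% to 74.6% of the Col18a1 UMIs of a library, against 8.17% to 30.1% for endothelial-like cells. Col15a1 averaged 289 ± 43.9 in endothelial-like, 235 ± 36.8 in fibroblast-like and 160 ± 53.2 in pericyte-like cells, with overlapping ranges, and 4.98 in tumour-like cells, near the 5.34 of T or NK-like cells. Col13a1, a membrane-spanning collagen, averaged 67.3 ± 25.7 in endothelial-like cells and at most 4.92 in the other 5 classes shown.

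Tumour-like cells had a small set of collagens above background. Col7a1, the anchoring fibril chain of epithelial basement membranes, stood at 75.2, 99.4 and 109 CPM in shNC libraries 1 to 3 and at 68.3, 83.2 and 70.7 in libraries 1 to 3 labelled shPgk1. Col8a1, a short-chain network collagen, stood at 114, 120 and 139 and at 103, 87.6 and 75.4. The groups overlapped for Col7a1 and did not for Col8a1. The T or NK-like means were 18.2 and 13.1, and the fibroblast-like means, 329 and 619, were higher than those of tumour-like cells. Tumour-like cells held 42.3% to 64.3% of the Col7a1 UMIs of a library and 37.4% to 65.5% of those of Col8a1. Col16a1, a fibril-associated collagen, averaged 35.6 ± 3.73 (SD, n = 6) in tumour-like cells and 7.58 in T or NK-like cells. Each of these ratios also exceeded 2 in every library in both tumour-like clusters taken alone, where the lowest was 2.28, for Col7a1 in cluster 1.

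Macrophage-like cells exceeded the background by more than 2 times for 1 member. Col14a1, a fibril-associated collagen, stood at 7.87, 10.8 and 14.3 CPM in shNC libraries 1 to 3 and at 12.4, 17.9 and 20.5 in libraries 1 to 3 labelled shPgk1. The T or NK-like values were 1.80, 3.17 and 4.29 and 1.22, 2.05 and 3.04. So the macrophage-like level was higher in each library, by 3.34 to 10.2 times. The groups overlapped in both classes. Cluster 2 held 38.9% to 55.6% of the macrophage-like cells in shNC and 56.9% to 65.9% in the libraries labelled shPgk1. Fibroblast-like cells, at 38.0 to 89.4, were higher still, and tumour-like cells averaged 2.17.

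Within fibroblast-like cells collagen levels did not pass the test between labels. The edgeR quasi-likelihood test on summed counts, with Benjamini-Hochberg adjustment over 12240 genes at 0.05, called 0 of 28 tested members, beside 0.0327% of all genes, and the 16 other members were too low to test. At an unadjusted p under 0.05 there were 4, beside 1069 of the 12240 genes. DESeq2 called 0 of 43, beside 5 genes called higher and 48 lower of 22769. Col1a2 had a log2 fold of 0.26 ± 0.066 (SE, edgeR, adjusted p = 0.266), Col1a1 of 0.22 ± 0.067 (adjusted p = 0.335), Col18a1 of 0.55 ± 0.19 (adjusted p = 0.423) and Col6a5 of -1.41 ± 0.52 (adjusted p = 0.482). Of the 28, 21 had a positive fold, and the median was 0.16 against -0.00431 for all genes tested. The summed collagen level was 26053, 26865 and 28719 CPM in shNC libraries 1 to 3 and 31675, 32182 and 33571 in libraries 1 to 3 labelled shPgk1, without overlap. In the same cells the 15 fibroblast markers, none of them a collagen, summed to 11171 to 12668 in shNC and 13080.5 to 15622.5 in the libraries labelled shPgk1, and the 12 tumour markers to 629 to 920 and 909 to 1125. Their part in the collagen values was not tested.

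In pericyte-like cells, with as few as 10 cells in library 1 labelled shPgk1, 0 of 18 tested members passed, beside 0.206% of all genes, and 26 were too low to test. At an unadjusted p under 0.05 there was 1, beside 479 of 5344 genes. It was Col4a1, with a log2 fold of 0.36 ± 0.17 (edgeR, adjusted p = 0.556). DESeq2 called 0 of 38, beside 3 genes called higher and 15 lower of 17419. The median fold was 0.30 against 0.0065 for all genes. Without library 1 labelled shPgk1, 1 member passed, beside 6 genes called higher and 13 lower of 6060. This was Col1a2, with a log2 fold of 0.99 (edgeR, adjusted p = 0.0227). Col4a1 stood at 1682, 2107 and 1853 CPM in shNC libraries 1 to 3 and at 2529, 2400 and 2275 in libraries 1 to 3 labelled shPgk1, each above the shNC range. In the same cells the 15 fibroblast markers summed to 2412 to 2953 CPM in shNC and 2955 to 4239 in the libraries labelled shPgk1. The 13 macrophage markers went the other way, at 1136 to 1585 and 979 to 1078. The groups overlapped for neither sum, and their part was not tested.

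In endothelial-like cells the type IV and multiplexin genes were close between labels, and Col1a1 fell. The test called 1 of 20 members, beside 0.056% of all genes, with 24 too low to test. Col1a1 had a log2 fold of -1.05 ± 0.17 (edgeR, adjusted p = 0.0403), from levels that matched those of T or NK-like cells in the same libraries. Leaving out shNC library 3, or any 1 library labelled shPgk1, ended the call. Col4a1 had a log2 fold of 0.11 ± 0.12 (adjusted p = 0.928), an interval of -0.14 to 0.36 at 2 standard errors. Another 6 members had an unadjusted p under 0.05 without passing, all with negative folds. Over all genes, 601 of 8928 had such a p. Among the 6 members was Col1a2 with -0.78 ± 0.17 (edgeR, adjusted p = 0.282). The 15 fibroblast markers summed to 339 to 360 CPM in shNC and 191 to 457 in the libraries labelled shPgk1 in these cells, and the 13 macrophage markers to 1241 to 1937 and 738 to 1035, without overlap. None was at 0 in all 6 libraries, though the lowest library value of the fibroblast marker Lum was 0. Their part was not tested.

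In tumour-like cells 6 of 35 tested members fell in the libraries labelled shPgk1 and 0 rose, beside 9.23% of all genes called, 5.46% called lower and 3.77% called higher, with 9 members too low to test. The 6 were Col1a1, the type V chain Col5a3, the fibrillar Col24a1, the fibril-associated Col19a1 and the membrane-spanning Col13a1 and Col25a1. Col1a1 had a log2 fold of -0.99 ± 0.22 (edgeR, adjusted p = 0.0400). Col5a3 stood at 6.19, 7.27 and 11.8 CPM in shNC libraries 1 to 3 and at 2.89, 4.02 and 2.98 in libraries 1 to 3 labelled shPgk1, a log2 fold of -1.21 ± 0.25 (adjusted p = 0.0331). Both had mean levels near those of T or NK-like cells, 213 against 209 for Col1a1 and 5.85 in both classes for Col5a3.

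Col19a1 stood above the T or NK-like level in each library, by 1.22 times or more, with a mean of 6.35 against 3.31 CPM. In cluster 0 the ratio was 2.16 to 5.49, and in cluster 1 it was 0.758 to 2.24, above 1 in 4 of 6 libraries. It stood at 7.11, 8.28 and 10.2 in shNC libraries 1 to 3 and at 4.28, 4.28 and 3.95 in libraries 1 to 3 labelled shPgk1, a log2 fold of -0.89 ± 0.15 (adjusted p = 0.0200). The groups did not overlap. Fitted alone, cluster 0 gave -0.64 (adjusted p = 0.0975) and cluster 1 gave -0.66 (adjusted p = 0.0708), so the call ended in both, and the shares of these clusters differed between labels as given below. Leaving out shNC library 2, or library 2 or 3 labelled shPgk1, ended it too (adjusted p = 0.0908, 0.0626 and 0.103). Col13a1, Col24a1 and Col25a1 fell by 1.35, 2.41 and 1.48 on the log2 scale (adjusted p = 0.0481, 0.0319 and 0.0402). They rested on few counts, 429, 100 and 91 UMIs over the 6 libraries. The 6 genes that exceeded the T or NK-like level by more than 2 times in tumour-like cells did not pass. Col8a1 had -0.35 ± 0.13 (adjusted p = 0.0871) and Col7a1 -0.21 ± 0.14 (adjusted p = 0.321). For Col4a1 the fold was 0.0065 ± 0.11 (adjusted p = 0.973), with an interval of -0.21 to 0.23 at 2 standard errors, and Col4a2, Col16a1 and Col18a1 missed the threshold too.

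The tumour-like counts depended on the cells and libraries summed. Cluster 0 held 53.3% to 79.6% of the class in the shNC libraries and 39.9% to 45.5% in those labelled shPgk1, where cluster 1 held most. Fitted alone, cluster 0 gave 0 called members, beside 5 genes called higher and 69 lower of 14923. Cluster 1 gave 1, Col5a3, beside 47 genes higher and 195 lower of 14345. Col5a3 was chosen after its values were seen, and these fits were added after the data had been seen. Marker gates on single barcodes gave 0, beside 12 genes called higher and 62 lower of 15649. DESeq2 gave 11 of 44, all lower, beside 1832 genes higher and 1282 lower of 26497. Without shNC library 1 the count was 12, beside 2272 genes called higher and 1880 lower of 17183. Without shNC library 3 it was 2, beside 68 genes higher and 166 lower of 17133. It was 0 without shNC library 2, with 0 genes higher and 17 lower of 17031. It was also 0 without library 2 labelled shPgk1 (2 and 74 of 16366) or library 3 so labelled (0 and 6 of 16378). Calls over all genes thus rose and fell in the same fits. The median fold of the 35 members was -0.55 against -0.033 for all genes. In the same cells the 15 fibroblast markers, none at 0, summed to 347 to 465 CPM in shNC and 262 to 280 in the libraries labelled shPgk1.

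Macrophage-like and T or NK-like cells gave like values without calls. In macrophage-like cells 0 of 31 members passed the edgeR test, beside 0.829% of all genes. At an unadjusted p under 0.05 there were 16, beside 2784 of 15561 genes. DESeq2 called 10 of 44, all lower, beside 154 genes called higher and 440 lower of 26333. Leaving out shNC library 1 gave 4 of 32 (edgeR), beside 13 genes higher and 160 lower of 15879. In T or NK-like cells 0 of 21 passed, beside 0.0593% of all genes. There 10 had an unadjusted p under 0.05, beside 1027 of 11813 genes. DESeq2 called 4 of 43, beside 13 genes higher and 46 lower of 22938. The members too low to test numbered 13 and 23. Col1a1 had a log2 fold of -1.16 ± 0.22 in macrophage-like cells (adjusted p = 0.0719) and -1.14 ± 0.21 in T or NK-like cells (adjusted p = 0.155). Col14a1 in macrophage-like cells had 0.56 ± 0.26 (adjusted p = 0.328). The 15 fibroblast markers summed to 320 to 443 CPM in shNC and 233 to 297 in the libraries labelled shPgk1 in macrophage-like cells, with none at 0, and to 795 to 1032 and 812 to 971 in T or NK-like cells, where Thy1 is among them. Their part was not tested.

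**Figure D4:**
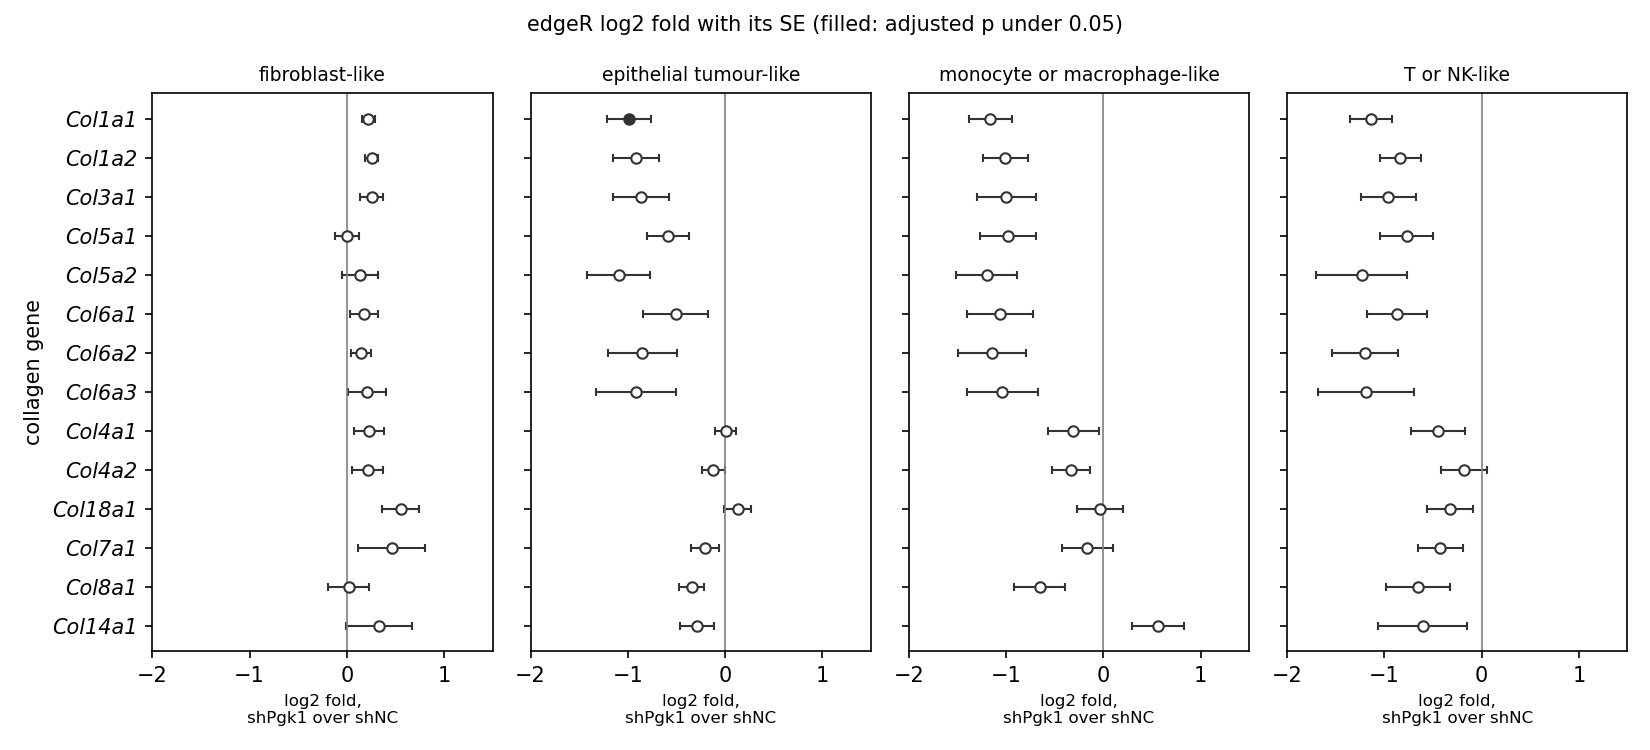
edgeR log2 fold of 14 collagen genes, libraries labelled shPgk1 over shNC, in 4 cell classes, with the SE as bars and filled points for an adjusted p under 0.05. In fibroblast-like cells the points of Col1a1, Col1a2 and Col3a1 lie between 0.22 and 0.26, and in the other 3 classes theirs lie between -1.16 and -0.84. The 1 filled point is Col1a1 in tumour-like cells.

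Differences between classes were tested directly, with the library as a term. The fold in fibroblast-like cells minus that in tumour-like cells was above 0 for 5 of 35 members, beside 1.82% of all genes called and 1.19% called in that direction. The 5 were the fibrillar chains Col1a1 with a difference of 1.22 ± 0.18 (edgeR, adjusted p = 0.0183), Col5a2 with 1.17 ± 0.22 (adjusted p = 0.0316), Col24a1 with 2.45 ± 0.59 (adjusted p = 0.0377), Col5a3 with 1.12 ± 0.23 (adjusted p = 0.0409) and Col5a1 with 0.59 ± 0.15 (adjusted p = 0.0429). Leaving out 1 library at a time gave between 2 and 12. Without library 2 labelled shPgk1 there were 2, beside 130 genes called higher and 20 lower of 16074. Without shNC library 1 there were 12, beside 400 genes higher and 486 lower of 16071. Without shNC library 2 there were 3 (173 and 18 of 16438), and without library 3 labelled shPgk1 there were 9 (151 and 3 of 16117). In tumour-like cells Col1a1, Col5a2 and Col5a3 had median ratios to T or NK-like cells of 1.01, 0.907 and 0.959. For these genes the fibroblast-like fold was thus set against the fold of a level near background. Col5a1 had a median ratio of 1.53, and Col24a1 had too few counts for a ratio.

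The same term against T or NK-like cells, added after the data had been seen, set each class beside the background class. Fibroblast-like minus T or NK-like passed for 3 of 29 members, beside 0.082% of all genes: Col1a1 with 1.35 ± 0.16 (adjusted p = 0.00361), Col3a1 with 1.19 ± 0.20 (adjusted p = 0.0427) and Col1a2 with 1.05 ± 0.18 (adjusted p = 0.0494). Only Col1a1 among them passed under each library left out and with other size factors. Tumour-like minus T or NK-like passed for 0 of 33, beside 0.097% of all genes. At an unadjusted p under 0.05 (edgeR) there were 2, beside 2213 of 15467 genes. For Col1a1 the difference was 0.14 ± 0.14 (adjusted p = 0.707), with an interval of -0.15 to 0.42 at 2 standard errors, so the fall in tumour-like cells was not shown to differ from the T or NK-like fold. Macrophage-like minus T or NK-like passed for 0 of 30, beside 0.0461% of all genes. Col14a1 was at 1.15 ± 0.33 (edgeR, adjusted p = 0.398). Col13a1 was the other member under an unadjusted p of 0.05, beside 1026 of 15186 genes. DESeq2 was not run on these differences.

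Endothelial-like minus T or NK-like passed for 1 of 22 members, beside 0.0254% of all genes. This was Col13a1, with a difference of 4.40 ± 0.65 (edgeR, adjusted p = 0.0112). Its endothelial-like levels were 38.7, 71.1 and 60.6 CPM in shNC libraries 1 to 3 and 115, 64.2 and 54.6 in libraries 1 to 3 labelled shPgk1, with overlap. In T or NK-like cells the raw counts were 13, 32 and 53 UMIs in shNC and 2, 3 and 0 in the libraries labelled shPgk1, found in 39 of 2837 cells in all, so the fitted difference rests on few counts in that class. Leaving out shNC library 2 or library 1 labelled shPgk1 ended the call.

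Summed over all kept cells, collagen counts fell for some members while the makeup of the libraries differed. The test called 5 of 39 members lower and 0 higher, beside 16.4% of all genes called, 7.06% called lower and 9.31% called higher, with 5 too low to test. They were Col19a1 with a log2 fold of -0.53 ± 0.096 (edgeR, adjusted p = 0.0212), Col5a3 with -1.07 ± 0.21 (adjusted p = 0.0243), Col25a1 with -1.11 ± 0.23 (adjusted p = 0.0270), Col27a1 with -0.82 ± 0.17 (adjusted p = 0.0285) and Col24a1 with -1.32 ± 0.30 (adjusted p = 0.0316). Col27a1 is a fibrillar chain, and stood at 4.11, 5.10 and 6.14 CPM in shNC libraries 1 to 3 and at 2.46, 2.76 and 3.07 in libraries 1 to 3 labelled shPgk1, without overlap. Col1a1 stood at 1009, 1091 and 1563 and at 489, 724 and 764, also without overlap, with a log2 fold of -0.82 ± 0.23 that missed the threshold (adjusted p = 0.0504). The median of the 39 members was -0.53 against -0.050 for all genes. DESeq2 called 17 of 44 members, all lower, beside 2806 genes called higher and 2024 lower of 28596. Leaving out 1 library gave from 0 to 16 members. There were 0 without shNC library 2, with 0 genes called higher and 3 lower of 19880. There were also 0 without library 2 labelled shPgk1 (0 and 10 of 19963) or library 3 so labelled (0 and 3 of 19991). Without shNC library 3 there were 2, beside 903 genes higher and 514 lower of 20060. Without shNC library 1 there were 16, beside 1251 genes higher and 1141 lower of 19822.

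Fibroblast-like cells made up 5.18%, 5.29% and 6.98% of the kept cells in shNC libraries 1 to 3 and 2.65%, 4.43% and 3.57% in libraries 1 to 3 labelled shPgk1. The difference of -2.27 percentage points had p = 0.1 in the two-sided exact permutation test, the smallest that 3 against 3 libraries allow (adjusted p = 0.275 over classes). Tumour-like cells made up 32.3% ± 6.61 and 46.7% ± 2.09 (SD, n = 3), with the same exact p of 0.1. From the sum over all cells alone, fewer fibroblast-like cells and less collagen RNA per cell cannot be told apart. Within fibroblast-like cells the summed collagen level was 26053 to 28719 CPM in shNC and 31675 to 33571 in the libraries labelled shPgk1. The part of each in the sum over all cells was not tested. The summed collagen level of all kept cells was 3344 ± 828 CPM in shNC and 2001 ± 387 in the libraries labelled shPgk1, and that of T or NK-like cells 729 ± 215 and 396 ± 61.1 (SD, n = 3).

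Among fibroblast-like cells, collagen genes differed with the contractile genes Acta2, Tagln and Myl9, which mark myofibroblasts. Cells were divided within each library at the median of their summed contractile UMIs per 10000, which gave 967 contractile-high and 970 contractile-low cells, with 112 near the limit. This is a range of 1 score and not a pair of cell types, and the contractile-high cells were deeper, with a median of 20718 against 9340 UMIs. In 6 of 6 libraries Col8a1, Col6a3, Col15a1, Col12a1, Col5a1, Col5a2, Col5a3 and Col1a1 were higher in contractile-high cells. Col8a1 averaged 764 ± 106 CPM against 353 ± 159 (SD, n = 6), Col12a1 1107 ± 213 against 668 ± 218, and Col1a1 12608 ± 1268 against 10789 ± 1461. For Col1a1 the difference was small, between 0.0042 and 0.30 on the log2 scale.

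In 6 of 6 libraries Col14a1, Col28a1, Col18a1, Col3a1, Col6a6, Col23a1 and Col16a1 were lower in contractile-high cells. Col14a1 averaged 24.0 ± 6.72 CPM in contractile-high and 121 ± 51.4 in contractile-low cells (SD, n = 6), and Col3a1 2575 ± 380 and 4243 ± 961. Dcn moved the same way, at 306 and 1518, and the tumour marker Epcam was at 47.1 and 73.7, lower in contractile-high cells in 5 of 6 libraries; its part was not tested. Over all fibroblast-like cells Col18a1 and Col6a6 stood only 1.47 to 4.82 and 1.68 to 2.93 times above the T or NK-like level. Col1a2, the partner of Col1a1, was higher in contractile-high cells in 5 of 6 libraries. In library 2 labelled shPgk1 Col1a2 was lower there, at 8419 against 9169, and Col1a1 was nearly level, at 13073 against 13035. So Col3a1 was lower in contractile-high cells in each library. The 2 type I chains were both higher there in all libraries but that one. The values describe cells of the same libraries and carry no test.

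**Figure D5:**
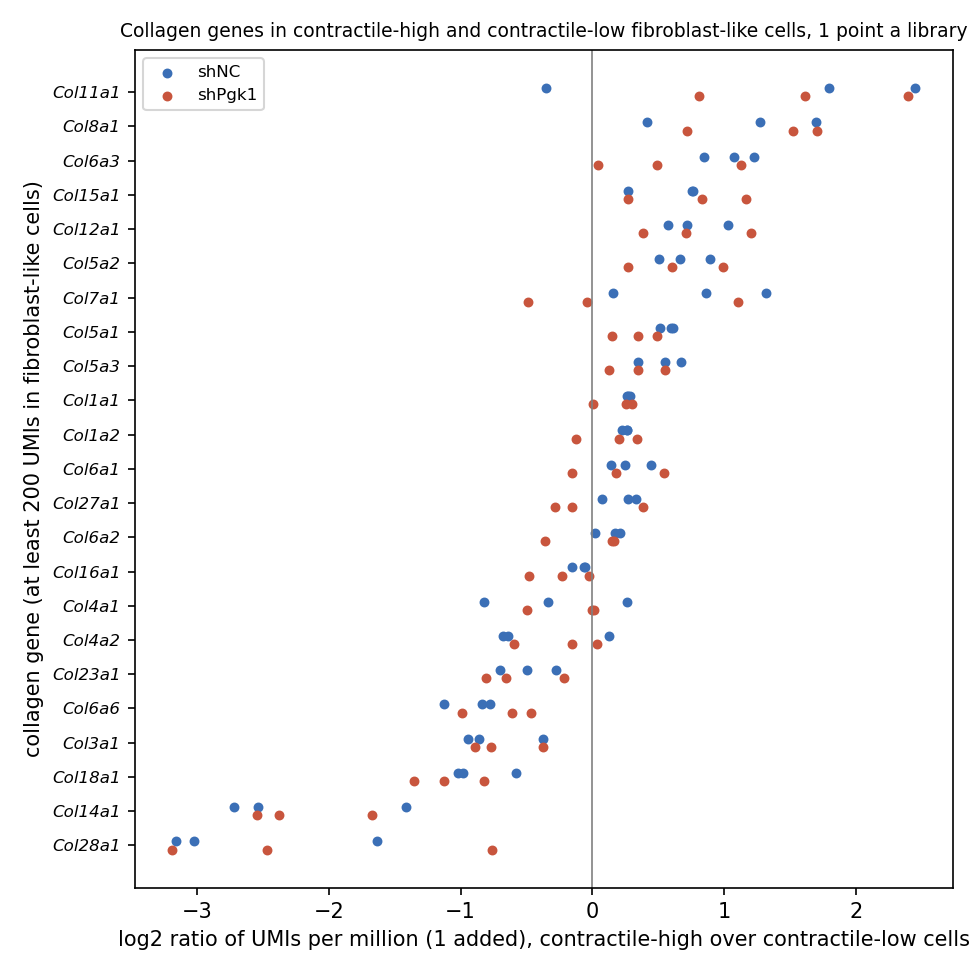
Log2 ratio of CPM (1 added) in contractile-high over contractile-low fibroblast-like cells for 23 collagen genes (rows), 1 point a library, coloured by label. Points of Col8a1 lie between 0.42 and 1.70 and those of Col14a1 between -2.72 and -1.41.

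Genes that make, export and bind collagen were counted from 4 lists. In fibroblast-like cells, where 0.0327% of all genes were called, 0 of 16 tested genes of hydroxylation and folding, 0 of 14 of export, propeptide cleavage and cross-linking, 0 of 12 fibril-binding and 0 of 8 receptor genes passed the edgeR test, with 1, 1, 1 and 2 at an unadjusted p under 0.05. Over all genes tested in these cells, 1069 of 12240 had an unadjusted p under 0.05. The median folds of the lists were 0.12, 0.11, 0.12 and 0.0024, against -0.0043 for all genes. Serpinh1, the collagen chaperone HSP47, had 0.20 ± 0.10 (adjusted p = 0.614) and Mia3, which carries procollagen out of the endoplasmic reticulum, 0.31 ± 0.10 (adjusted p = 0.404). In pericyte-like cells, with 0.206% of all genes called, 0 of 16, 10, 9 and 4 tested genes of the 4 lists passed, with 7, 1, 3 and 2 at an unadjusted p under 0.05. Over all genes tested in pericyte-like cells, 479 of 5344 had an unadjusted p under 0.05. DESeq2 was not counted on these lists. Serpinh1 averaged 920 ± 19.8 CPM in shNC and 1347 ± 14.6 in the libraries labelled shPgk1 (SD, n = 3), a log2 fold of 0.55 ± 0.17 (adjusted p = 0.303). The fibroblast marker sum of these cells was higher too in the libraries labelled shPgk1, and its part was not tested.

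In tumour-like cells, where 3.77% of all genes were called higher and 5.46% lower, 2 of 17 folding genes rose, Crtap, which serves prolyl 3-hydroxylation, by 0.53 ± 0.12 and Ppib, its cyclophilin partner, by 0.44 ± 0.11 on the log2 scale (edgeR, adjusted p = 0.0375 and 0.0440). Of 15 export and cross-linking genes 3 rose and 2 fell: the procollagen C-proteinase enhancers Pcolce by 0.49 ± 0.10 and Pcolce2 by 0.62 ± 0.13 and the proteinase Tll2 by 1.47 ± 0.35, and downward the N-proteinase Adamts14 with -0.72 ± 0.13 and the cross-linking oxidase Lox with -1.04 ± 0.23 (adjusted p = 0.0319, 0.0331, 0.0390, 0.0232 and 0.0344 in that order). Tll2 was named after its values were seen. Lox averaged 4.66 CPM in shNC and 2.04 in the libraries labelled shPgk1, beside 4.30 and 2.07 in T or NK-like cells, and Tll2 0.385 and 0.967 beside 0.260 and 0.912, so both sat near that background. Adamts14, at 14.4 and 7.91, was below the T or NK-like 26.6 and 15.8. Pcolce and Pcolce2 stood above theirs, at 149 and 189 against 20.6 and 25.6 and at 36.2 and 50.2 against 3.54 and 4.93. Of 12 fibril-binding genes 1 fell, Lum, with -0.76 ± 0.20 (adjusted p = 0.0471), at a tumour-like mean of 2.34 CPM beside 2.30 in T or NK-like cells. Of 9 receptor genes 0 passed, with 0 at an unadjusted p under 0.05, beside 5677 of 16295 genes. In macrophage-like cells, where 0.829% of all genes were called, 2 of 15 export and cross-linking genes fell, Lox with -1.24 ± 0.23 and Loxl2 with -1.52 ± 0.27 (adjusted p = 0.0484 and 0.0498), while 0 of 17 folding, 12 fibril-binding and 9 receptor genes passed, with 2, 9 and 2 at an unadjusted p under 0.05. Over all genes tested in macrophage-like cells, 2784 of 15561 had an unadjusted p under 0.05. Lox and Loxl2 sat near the T or NK-like level. Lox averaged 4.79 CPM in shNC and 2.13 in the libraries labelled shPgk1, beside 4.30 and 2.07. Loxl2 averaged 7.01 and 2.55 beside 7.81 and 2.86.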

How the data were processed

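The 6 deposited matrices hold UMI counts per gene and barcode, made by the authors with PISA 0.12, per the file headers. The submitters' processing notes name Seurat 4 and the human build GRCh38, while gene names are those of mouse; no aligner is named in those notes. Barcodes under 500 UMIs, under 300 genes or above 20% mitochondrial UMIs were dropped (643 of 42902), and 801 barcodes with a Scrublet score above 0.25 were left out as possible doublets, a limit set by hand. Clusters (scanpy 1.11.5, Leiden at resolution 0.5, 2000 variable genes without collagens) were named from marker lists of 18 types, each needing 3 raised markers. Counts were summed per library and class and tested with edgeR 4.0.16 (quasi-likelihood, TMM, filterByExpr, Benjamini-Hochberg at 0.05). On counts simulated at a fixed spread, recovery of log2 folds of size 1 ran from 28.8% (fibroblast-like minus tumour-like) to 81.8% (all kept cells). It was 59.5% in fibroblast-like and 43.3% in pericyte-like cells. False calls ran from 1.94% of calls in fibroblast-like to 9.47% in macrophage-like cells. CPM is relative to all UMIs of the class in a library. Depth behind each level is the UMI total of the class, and thin classes give wide errors. The SE of an edgeR fold was worked back from the fold and its test statistic, as edgeR reports none. Alternatives were DESeq2 1.42.0, RLE size factors, no filter, a replicate block, each library left out, barcode gates, and other clusterings. R was 4.3.3.

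Members called in any class, the 6 highest of each of 5 classes, their chain partners, and up to 4 genes of each pathway list with the smallest p per class were named. The members and lists were chosen with earlier results of these data known. Pathway genes named outside that rule are marked. Of columns belonging to other samples there were 0.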

Additional observations from a re-analysis of the deposited data

Results flagged for a closer look

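Collagen genes whose label effect differed between classes, by the class-by-label term of edgeR, are given as log2 differences. Against tumour-like cells the fibroblast-like fold was higher for Col1a1 by 1.22, for Col5a2 by 1.17, for Col24a1 by 2.45, for Col5a3 by 1.12 and for Col5a1 by 0.59. With each library left out in turn the adjusted p passed in 5 of 6 fits for Col1a1 and Col5a2, in 6 of 6 for Col5a3, in 2 of 6 for Col24a1 and in 1 of 6 for Col5a1. The tumour-like levels of Col1a1, Col5a2 and Col5a3 lay near the T or NK-like background.

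Against T or NK-like cells the fibroblast-like fold was higher for Col1a1 by 1.35, for Col3a1 by 1.19 and for Col1a2 by 1.05. The adjusted p passed in 6 of 6, 3 of 6 and 2 of 6 of those fits. The T or NK-like folds of these 3 genes were -1.14, -0.96 and -0.84, and the fibroblast-like folds 0.22, 0.25 and 0.26. For Col13a1 the endothelial-like fold was higher than the T or NK-like fold by 4.40, and passed in 4 of 6 fits.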

How the results depend on the processing

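Counts of collagen genes past the threshold moved as follows. DESeq2 gave 17 over all kept cells, 11 in tumour-like, 10 in macrophage-like and 4 in T or NK-like cells. Its calls over all genes are given above. Without the filter on low counts there were 3 of 43 in fibroblast-like cells (1 higher, 2 lower), beside 71 genes called higher and 266 lower of 22774. There were 2 of 41 in endothelial-like cells (13 and 121 of 20073 genes) and 1 of 44 in macrophage-like cells (168 and 423 of 26340). In T or NK-like cells there were 11 of 43 (71 and 274 of 22941). Fibroblast-like minus tumour-like gave 14 of 44 (449 and 471 of 26875). Fibroblast-like minus T or NK-like gave 11 of 44 (92 and 36 of 24754). RLE size factors gave 8 and 1 for these differences, beside 233 genes higher and 47 lower of 15682, and 5 and 0 of 13410. Barcode gates gave 0 in endothelial-like cells (0 genes higher and 1 lower of 7963) and 0 in tumour-like cells (12 and 62 of 15649). Cluster 0 alone gave 0 (5 and 69 of 14923) and cluster 1 alone 1 (47 and 195 of 14345). Macrophage-like cluster 3 alone gave 1 (17 and 102 of 13761). Leaving out 1 library gave 0 to 16 over all kept cells, 0 to 1 in pericyte-like, 0 to 12 in tumour-like and 0 to 4 in macrophage-like cells. In endothelial-like cells it gave 0 to 1, with 0 genes called of 8844 without library 2 labelled shPgk1. In T or NK-like cells it gave 0 to 2, the 2 without shNC library 1 (1 gene higher and 32 lower of 11948). Fibroblast-like minus tumour-like gave 2 to 12. Fibroblast-like minus T or NK-like gave 1 to 5, with 1 without shNC library 3 (1 gene higher and 0 lower of 13683). It gave 5 without shNC library 1 (22 and 1 of 13549). Endothelial-like minus T or NK-like gave 0 to 1, with 0 without library 1 labelled shPgk1 (1 and 0 of 12127). The replicate block gave 12 over all kept cells (1142 genes higher and 1428 lower of 19523) and 7 in tumour-like cells (112 and 605 of 16295). It gave 1 in macrophage-like cells (0 and 36 of 15561) and 2 in T or NK-like cells (3 and 24 of 11813). In fibroblast-like cells it gave 0 (3 and 39 of 12240). Over all kept cells same-numbered libraries had deviations correlated at 0.17, 0.045 and -0.097, so the numbers are not taken to pair them. Folds that were never called changed sign: Col4a1 in tumour-like cells was -0.069 with gates, -0.00071 with collagens among the variable genes, -0.047 in cluster 0, -0.11 in cluster 1 and -0.069 to 0.079 with 1 library left out; Col16a1 there was -0.024 in cluster 0 and -0.039 to 0.10, and Col18a1 -0.0045 to 0.22; in endothelial-like cells Col18a1 was -0.29 to 0.17 and Col4a2 -0.021 to 0.20. Among folds of single genes 605 alternative values kept direction and side of the threshold, 84 lost a call, 29 gained one and 14 changed sign. The cause was not tested.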
